A study of Mus musculus with 7 samples.

Results

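A set of 48 genes of the cell cycle was followed through the developing mouse cortex: 22 genes of S phase, in which DNA is copied, and 26 genes of G2/M, in which the cell prepares for division and divides. The genes were given as a list of symbols, with no measured value in the rule, and all 48 had a row in each of the 7 libraries, out of 23413 gene symbols in all. The S members were Mcm2, Mcm3, Mcm4, Mcm5, Mcm6, Mcm7, Cdc6, Cdc45, Gins2, Pcna, Pola1, Rfc2, Dut, Rrm1, Rrm2, Tyms, Ung, Chaf1b, Hells, Slbp, Uhrf1 and Ccne2. The G2/M members were Ccna2, Ccnb1, Ccnb2, Cdk1, Mki67, Ncapg, Top2a, Bub1, Cenpa, Cenpe, Cenpf, Aurka, Hmmr, Kif11, Kif15, Nusap1, Tacc3, Tpx2, Anln, Aurkb, Birc5, Kif20b, Kif23, Plk1, Cdc20 and Ube2c.

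The libraries came from cortices of 7 embryos of 1 litter, taken at E18.5 (E for embryonic day) and profiled 1 embryo per library on Seq-Well, in which single cells and barcoded beads share small wells. The 4 mutants (replicates 10, 11, 12 and 17) were Emx1CreERT2;Ash1lfl/fl, and the 3 controls (replicates 14, 15 and 16) were Ash1lfl/fl without the Cre. Both groups carried floxed alleles of Ash1l, a histone methyltransferase gene, and both were exposed to tamoxifen through the dam, at 100 mg/kg on E10.5. The Cre is active only with tamoxifen and is driven by Emx1, which is expressed in progenitors of the dorsal forebrain, so cells of other origin, such as interneurons from the ventral forebrain, lie outside the driver's domain.

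The MCM proteins form the helicase that opens the DNA ahead of the replication fork, and genes of S phase are in large part under the control of E2F factors. Genes of G2/M are switched on later, by the MuvB complex with B-Myb and FoxM1, acting at CHR elements near the start site. CCAAT boxes are the sites of another factor, NF-Y. In the embryonic cortex, radial glia divide next to the ventricle and give rise to intermediate progenitors, which divide again before their daughters become glutamatergic neurons that no longer divide.

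Promoter windows of the 3 S and the 3 G2/M members with most UMIs (unique molecular identifiers, which count captured RNA molecules) are shown first, because their capitals show the words whose shares are compared between the lists. Each is a RefSeq window of GRCm38.p6, from 250 bases before to 50 bases after the annotated start, printed in the direction of transcription. Capitals mark E2F words (GCGGGAA and the words GCGCGAA, further also GCGCCAA and its relative GCGGCAA), CHR words (TTTGAA and the related TTCGAA) and the word CCAAT, each searched on both strands. The E2F word GCGCCAA can overlap CCAAT, and a match is a description of the letters, not a bound site. Mcm7, a helicase subunit, is shown by the upstream one of its 2 windows, at chr5:138171834-138172133 on the minus strand, with 3 E2F, 1 CHR and 3 CCAAT words. Rrm1, the large subunit of ribonucleotide reductase, has 1 E2F and 2 CCAAT words at chr7:102441445-102441744 on the plus strand. Dut, which keeps dUTP out of DNA, has none of these words at chr2:125247265-125247564 on the plus strand. That window lies inside the gene, which starts at 125247190 in the GENCODE annotation, so bases before that start were not searched. Top2a, a topoisomerase of condensing chromosomes, has 4 CHR and 6 CCAAT words and no E2F word at chr11:99024140-99024439 on the minus strand. Mki67, which coats mitotic chromosomes, has 1 E2F, 2 CHR and 3 CCAAT words at chr7:135716330-135716629 on the minus strand. Cenpf, a kinetochore protein, has 1 CHR and 2 CCAAT words at chr1:189688037-189688336 on the minus strand.
Mcm7: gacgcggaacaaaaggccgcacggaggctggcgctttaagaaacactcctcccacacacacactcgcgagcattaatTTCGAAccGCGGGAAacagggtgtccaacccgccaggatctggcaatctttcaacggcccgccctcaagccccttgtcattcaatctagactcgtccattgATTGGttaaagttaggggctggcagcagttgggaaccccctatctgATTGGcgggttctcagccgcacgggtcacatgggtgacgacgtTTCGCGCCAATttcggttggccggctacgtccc
Rrm1: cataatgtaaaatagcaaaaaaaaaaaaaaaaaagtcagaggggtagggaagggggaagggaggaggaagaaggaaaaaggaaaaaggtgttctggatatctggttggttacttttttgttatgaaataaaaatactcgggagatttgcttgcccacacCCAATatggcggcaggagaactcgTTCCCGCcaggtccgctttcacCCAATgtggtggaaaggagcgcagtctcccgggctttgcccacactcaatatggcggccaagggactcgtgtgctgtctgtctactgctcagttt
Dut: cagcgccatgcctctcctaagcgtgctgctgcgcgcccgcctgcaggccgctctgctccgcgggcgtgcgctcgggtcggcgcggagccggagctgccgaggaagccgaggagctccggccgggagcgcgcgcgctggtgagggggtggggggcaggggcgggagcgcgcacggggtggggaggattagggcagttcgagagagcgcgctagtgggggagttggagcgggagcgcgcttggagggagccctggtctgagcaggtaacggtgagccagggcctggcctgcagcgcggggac
Top2a: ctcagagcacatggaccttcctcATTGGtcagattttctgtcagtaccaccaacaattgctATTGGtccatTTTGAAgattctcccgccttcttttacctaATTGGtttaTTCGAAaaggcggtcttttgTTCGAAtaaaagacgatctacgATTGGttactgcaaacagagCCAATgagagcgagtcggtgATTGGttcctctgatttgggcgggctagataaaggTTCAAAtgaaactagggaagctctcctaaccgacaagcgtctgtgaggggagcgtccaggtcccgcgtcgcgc
Mki67: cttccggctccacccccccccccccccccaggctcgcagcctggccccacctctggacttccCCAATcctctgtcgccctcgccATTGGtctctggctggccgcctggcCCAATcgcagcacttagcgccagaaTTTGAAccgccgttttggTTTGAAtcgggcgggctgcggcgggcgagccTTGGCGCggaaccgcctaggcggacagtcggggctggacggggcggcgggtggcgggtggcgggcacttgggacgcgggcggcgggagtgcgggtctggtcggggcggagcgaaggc
Cenpf: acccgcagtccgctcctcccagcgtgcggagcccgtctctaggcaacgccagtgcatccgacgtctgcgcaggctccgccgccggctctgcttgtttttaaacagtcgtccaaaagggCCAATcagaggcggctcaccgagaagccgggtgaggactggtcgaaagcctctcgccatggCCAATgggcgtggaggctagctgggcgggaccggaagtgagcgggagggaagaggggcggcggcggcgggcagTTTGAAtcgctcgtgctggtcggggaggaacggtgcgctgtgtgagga

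Windows were found for 18 S members (20 windows) and 23 G2/M members (23 windows); Mcm4, Gins2, Rfc2, Ccne2, Tpx2, Ccna2 and Aurkb had no entry. An E2F word stood in 13 of the S windows (65%) and in 7 of the G2/M windows (30.4%), beside 9.57% of all 32851 windows of this length in the table. Mcm6 had the most of any S member's window, with 5. The windows of Dut, Cdc6 and Mcm7 lay wholly inside the gene as GENCODE annotates it. Bases before the outermost start of these genes were thus not searched. A CHR word stood in 18 of the G2/M windows (78.3%) and in 3 of the S windows (15%), beside 19.2% of all windows. CCAAT was common to both lists, in 17 of the G2/M windows (73.9%) and 14 of the S windows (70%), beside 37.4% of all. CHR and CCAAT stood together in 15 G2/M windows (65.2%), beside 7.52% of all windows.

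Of 50191 barcodes, 23005 were kept for having 500 or more genes with a UMI and no more than 10% mitochondrial UMIs, from 2114 to 4285 per embryo with a median of 1241.5 to 2133 UMIs per cell. The libraries held 7083225 to 11859209 UMIs in all, of which 5316785 to 9460628 lay in kept cells. Any 2 libraries shared 6 to 13 barcode strings, and no pair agreed within sampling noise (chi-square per gene from 5.85 to 37.4). Ash1l itself had 156, 157, 170 and 121 CPM (its UMIs over all UMIs, on a fixed scale) in mutants, against 162, 217 and 206 CPM in controls. Mutant 12 lay above control 14, so the groups overlapped; the labels do not say which exons the floxed allele loses or whether the captured RNA ends lie among them, so this level checks little. The embryos are of 1 litter and nothing gives a library batch, so p-values measure the spread between these embryos.

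The 48 members held 99371 UMIs, or 0.206% of those in kept cells. The S members had 53209 of them, from 330 (Ccne2) to 6235 (Mcm7), and the G2/M members 46162, from 355 (Plk1) to 7088 (Top2a). Members were spread over cells in different ways. Mcm7 was detected in 4590 cells (19.95%), although Top2a, with more UMIs, was detected in only 2018 cells (8.77%).

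Cells were placed in classes by lists of markers, none of which is a cell cycle member: a barcode took the class with most of its markers detected, and ties had no class. The classes were dorsal radial glia-like (686 cells), intermediate progenitor-like (1212), ventral progenitor-like (287), astroglia-like (1348), oligodendrocyte precursor-like (143), interneuron-like (1262) and glutamatergic neuron-like (8929), and 8948 cells had none. Among the markers of intermediate progenitors, Neurog1 was close to absent, at 0.00356 UMIs per 10000 in that class, whereas Eomes was at 5.65 there and at 0.593 in dorsal radial glia-like cells.

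Cell cycle UMIs were most abundant in glia-like and progenitor-like cells and lowest in neuron-like cells. In dorsal radial glia-like cells, S members made up 26.2 ± 6.31 and G2/M members 39.0 ± 11.5 UMIs per 10000 (SD, n = 7 embryos here and for the next classes). Astroglia-like cells were alike in S members (26.6 ± 4.58) and had 31.8 ± 7.82 for G2/M members. Ventral progenitor-like cells, over the 6 embryos with at least 20 such cells, had 22.2 ± 6.91 and 33.7 ± 14.3 UMIs per 10000. Oligodendrocyte precursor-like cells had 26.2 ± 9.33 and 38.7 ± 25.2 over only 3 embryos. The spread over embryos was wide enough that these 4 classes overlapped in both lists.

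Intermediate progenitor-like cells lay lower, with 18.7 ± 2.16 UMIs per 10000 for S members and 21.03 ± 2.84 for G2/M members (n = 7). Interneuron-like cells had 7.78 ± 1.22 and 5.46 ± 3.36. Glutamatergic neuron-like cells had 6.89 ± 0.641 and 2.70 ± 0.697. The ratio of S to G2/M UMIs was thus 2.66 in glutamatergic neuron-like cells, 1.75 in interneuron-like cells, 0.901 in intermediate progenitor-like cells, 0.868 in astroglia-like cells and 0.690 in dorsal radial glia-like cells (means over embryos).

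**Figure D1:**
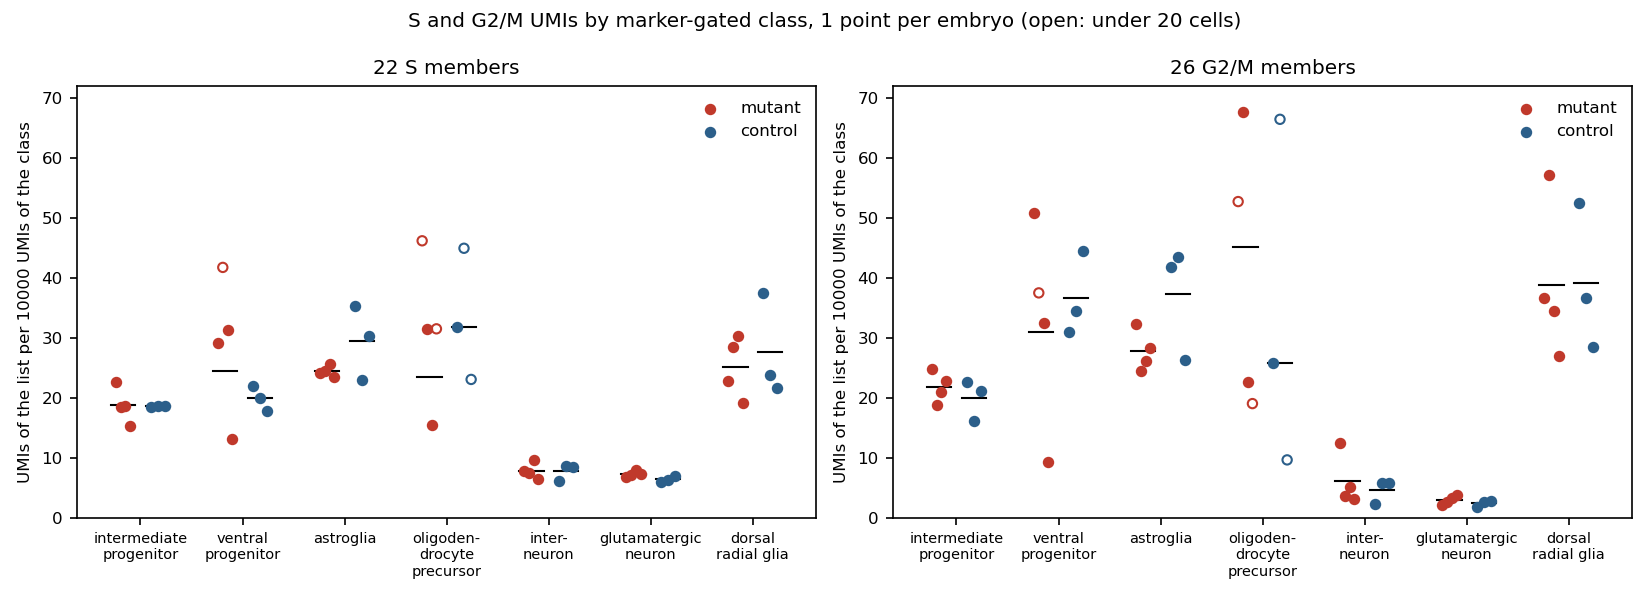
UMIs of the 22 S members (left) and the 26 G2/M members (right) per 10000 UMIs of a class, 1 point per embryo, mutants in red and controls in blue, with the mean of embryos with at least 20 cells as a line and open points for fewer cells. Neuron-like classes lie lowest in both panels, and more so for G2/M members (2.70 per 10000 on average in glutamatergic neuron-like cells, 39.0 in dorsal radial glia-like cells).

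The level in neuron-like cells can be set beside that in small barcodes. The 25467 barcodes with under 500 genes (median 435 UMIs) had 10.4 S and 8.64 G2/M UMIs per 10000, a ratio of 1.21. Both levels lay above the means in glutamatergic neuron-like cells (6.89 and 2.70). In glutamatergic neuron-like cells the ratio was between 1.88 and 3.33 in all 7 embryos, above that of the small barcodes. The small barcodes were taken by gene number alone, without the mitochondrial limit, and what they hold was not tested.

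Intermediate progenitor-like cells were compared with dorsal radial glia-like cells embryo by embryo, which asks how the cycle genes differ between the 2 dorsal progenitor stages. Both summed lists were lower in intermediate progenitor-like cells in 7 of 7 embryos. The median excess in dorsal radial glia-like cells was 1.27-fold for S members (1.01 to 2.03) and 1.64-fold for G2/M members (1.19 to 3.04). The ratio of S to G2/M UMIs was higher in intermediate progenitor-like cells in 6 of 7 embryos.

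Per gene, 35 members had enough counts to be tested, 15 of the 22 S members and 20 of the 26 G2/M members. In the edgeR quasi-likelihood fit with the embryo as a block, 26 of the 35 fell in intermediate progenitor-like cells and none rose (Benjamini-Hochberg adjusted p under 0.05), beside 7.13% of all 5817 genes tested that fell and 4.93% that rose. These were 9 of 15 tested S members and 17 of 20 tested G2/M members. The median log2 fold change was −0.53 for S members and −0.85 for G2/M members, beside 0.0013 for all genes tested. The difference between the lists was not tested. Markers of glutamatergic neurons moved with this contrast: all 8 were higher in intermediate progenitor-like cells, and their sum ran from 6.76 to 8.99 UMIs per 10000 over embryos there, against 2.42 to 5.75 in dorsal radial glia-like cells. Their part in the falls was not tested.

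The largest fall was that of Cdk1. Cdk1, the kinase that drives entry into mitosis, had a lowest, median and highest value over embryos of 25.6, 68.5 and 93.0 CPM in intermediate progenitor-like cells, against 106, 139 and 214 CPM in dorsal radial glia-like cells (CPM here scaled by the fit's normalisation). The 2 ranges did not overlap, and the log2 fold change was −1.35 (SE 0.20, edgeR adjusted p = 1.24e-06). Its partner Ccna2, cyclin A2, fell by 1.06 on the log2 scale (SE 0.18). Hmmr, a spindle protein, fell by 1.28 (SE 0.29), Ncapg, a condensin subunit, fell by 1.09 (SE 0.18), and Cenpf fell by 1.06 (SE 0.15). These were the 5 largest falls.

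All 3 genes of the mitotic chromosome fell. Top2a had 279.6, 401 and 455 CPM in intermediate progenitor-like cells, against 467, 629 and 992 CPM in dorsal radial glia-like cells. Mki67 had 299, 331 and 394 CPM in intermediate progenitor-like cells, against 414, 579.8 and 1037 CPM in dorsal radial glia-like cells. In both genes every embryo's intermediate progenitor-like value lay under every dorsal radial glia-like value, with log2 fold changes of −0.81 (SE 0.11) for Top2a and −0.82 (SE 0.11) for Mki67.

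All 6 tested spindle genes fell: Hmmr, Kif11, Kif15, Nusap1, Tacc3 and Tpx2, from −0.68 for Kif15, a spindle motor, to −1.28 for Hmmr. Tpx2, which activates Aurora A on the spindle, had 131, 137 and 173 CPM in intermediate progenitor-like cells, against 195, 204 and 417 CPM in dorsal radial glia-like cells, and these did not overlap. At the kinetochore, Cenpa, Cenpe and Cenpf fell, and the checkpoint kinase Bub1 had a log2 fold change of −0.46 that did not pass (edgeR adjusted p = 0.21). Aurkb, the kinase of the chromosomal passenger complex, and Kif23, a motor of the cleavage furrow, fell, whereas Birc5, survivin, had −0.44 (edgeR adjusted p = 0.427). Of the activator and the ubiquitin-conjugating enzyme of the anaphase-promoting complex, Cdc20 fell by 0.98 on the log2 scale, and Ube2c had −0.43 (edgeR adjusted p = 0.175).

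Among S members, 4 of the 6 MCM subunits fell: Mcm2, Mcm3, Mcm4 and Mcm5, between −0.47 for Mcm2 and −1.04 for Mcm3. Mcm7 had 154, 212 and 269 CPM in intermediate progenitor-like cells, against 160.2, 209.7 and 321 CPM in dorsal radial glia-like cells, which overlapped over most of their range, with a log2 fold change of −0.04 (SE 0.14, edgeR adjusted p = 0.895). Mcm6 had −0.31 (edgeR adjusted p = 0.134). Mcm7 shares exonic positions with Ap4m1 and Cops6 on the opposite strand, and whether the counting used strand is not given in the sources used here.

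Pcna, the clamp that holds DNA polymerases on the template, fell by 0.70 on the log2 scale (SE 0.14), with 128, 151 and 209 CPM in intermediate progenitor-like cells, against 199, 224 and 502 CPM in dorsal radial glia-like cells. Pola1, of the priming polymerase, and Rfc2, of the clamp loader, had −0.70 and −0.37 and did not pass (edgeR adjusted p = 0.0821 and 0.232). Of the genes of nucleotide supply, both subunits of ribonucleotide reductase fell, Rrm1 by 0.39 (SE 0.12) and Rrm2 by 0.60 (SE 0.17). Rrm1 had 223, 256 and 341 CPM in intermediate progenitor-like cells, against 249.7, 320.3 and 492 CPM in dorsal radial glia-like cells, so the ranges overlapped, and 2 of the 7 embryos went the other way. Dut and Tyms, which makes thymidylate, had −0.27 and −0.44 (edgeR adjusted p = 0.3 and 0.228). Uhrf1 and Hells, which keep DNA methylation on copied DNA, fell by 0.95 and 0.65.

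The origin genes Cdc6, Cdc45 and Gins2, with Ung, Chaf1b, Slbp, Ccne2, Ccnb1, Ccnb2, Aurka, Anln, Kif20b and Plk1, had too few counts in these classes to be tested. Among genes of the cycle outside the 48, a list of 40 further G2/M genes had 28 tested, of which 17 fell and none rose. The cytokinesis genes Prc1 and Racgap1 were among them, at −1.01 and −0.95. Of 14 tested among 27 further S genes, 3 fell (Cdt1, Lig1 and Tipin), and none rose. Of 16 tested among 36 cell cycle regulators, E2f5 fell by 1.42, the G1 cyclin gene Ccnd1 fell by 1.11, and Cdkn1c, an inhibitor of cyclin-dependent kinases, rose by 0.87 (SE 0.21, edgeR adjusted p = 0.00186). With DESeq2 in place of edgeR, 19 members fell, and leaving out 1 embryo at a time gave 20 to 28. The share of all genes called under those alternatives is not given here.

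**Figure D2:**
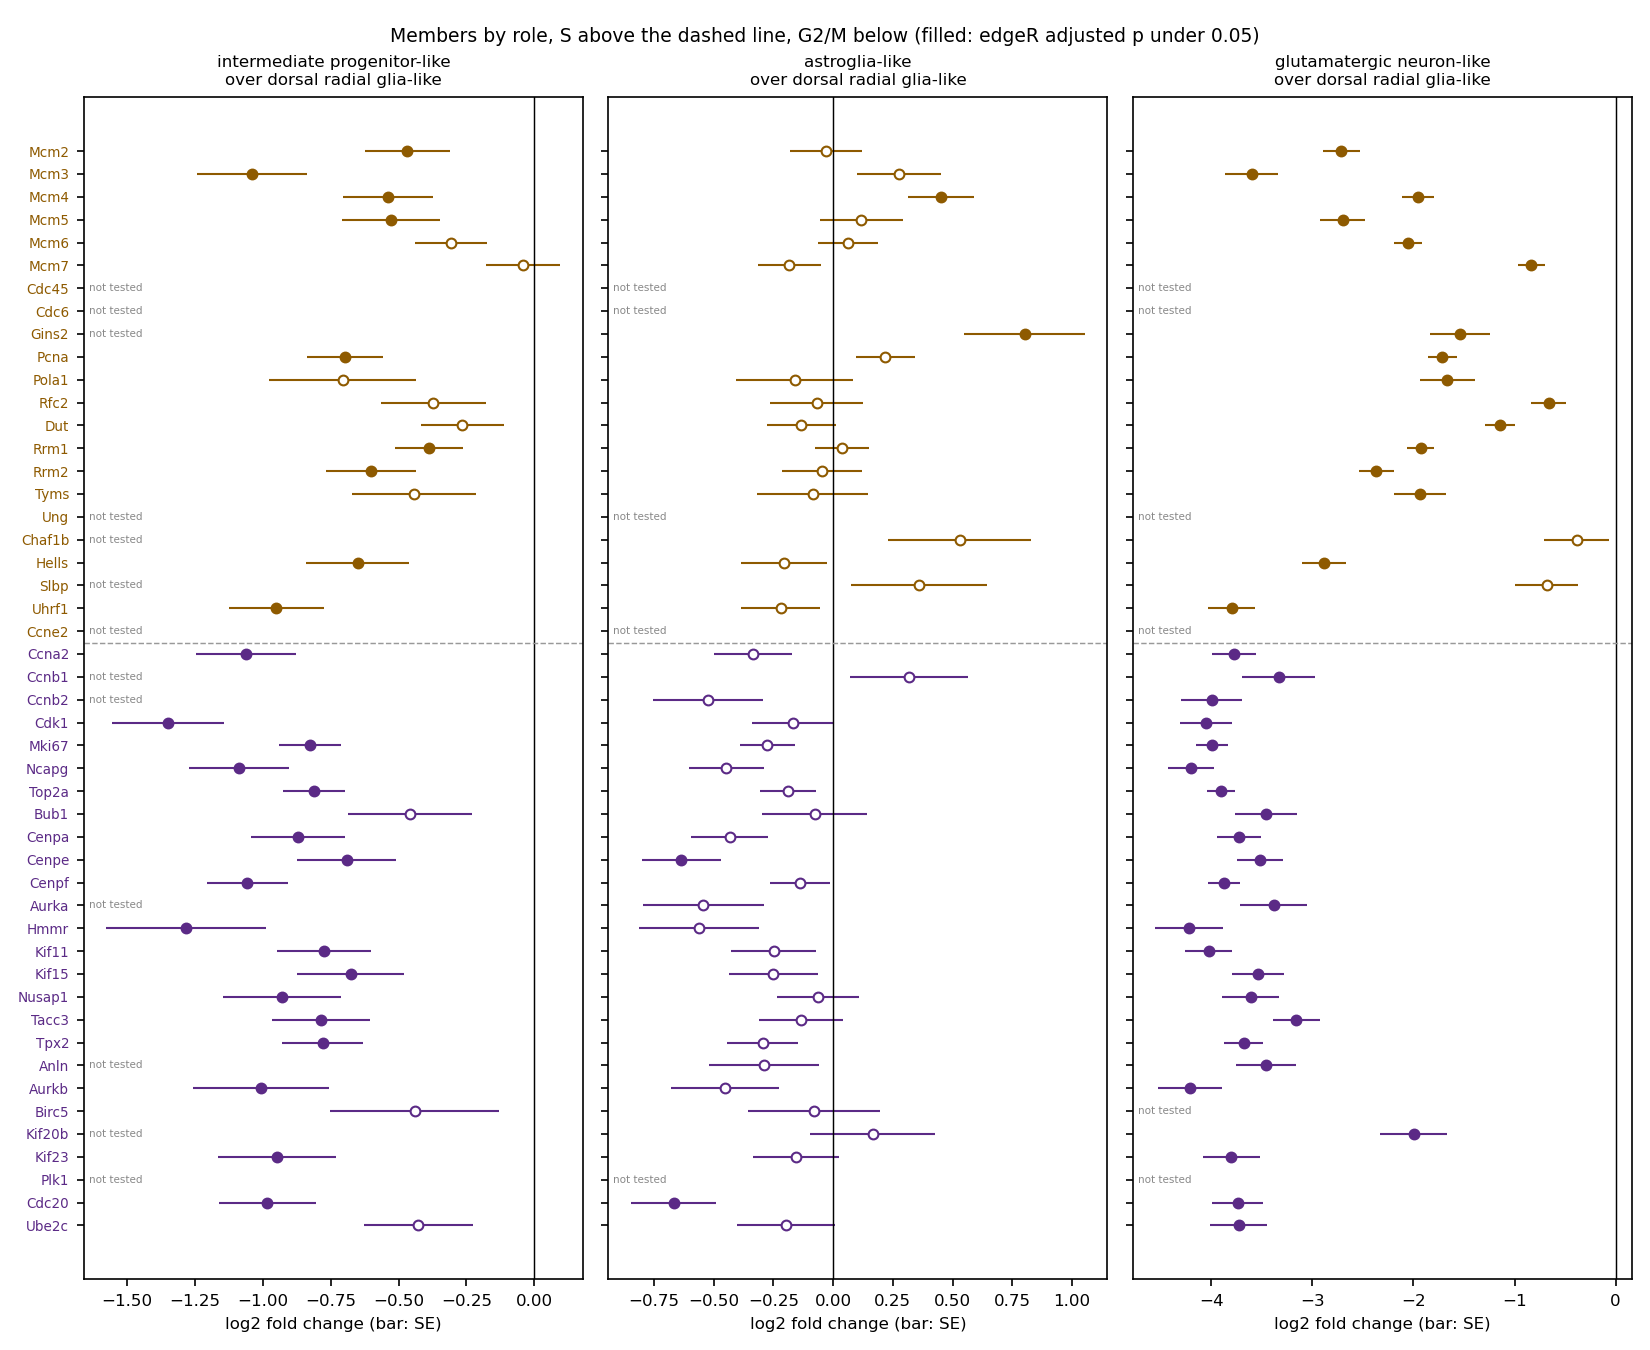
Log2 fold change of each member in intermediate progenitor-like (left), astroglia-like (middle) and glutamatergic neuron-like cells (right) over dorsal radial glia-like cells, with SE bars, filled where edgeR's adjusted p was under 0.05, S members in brown and G2/M members in purple. All tested members lie left of 0 in the outer panels, while the middle panel has 4 filled points.

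Few members differed between astroglia-like and dorsal radial glia-like cells. Of 43 tested members, 2 rose and 2 fell in the edgeR fit, beside 6.27% and 3.65% of all 6381 genes tested, so these shares were near the background or only slightly above it. Mcm4 had 183, 212 and 304 CPM in astroglia-like cells, against 110.5, 183 and 209.5 CPM in dorsal radial glia-like cells, higher in astroglia-like cells in 7 of 7 embryos, with a log2 fold change of 0.45 (SE 0.14, edgeR adjusted p = 0.026). Gins2, of the GINS complex of the active helicase, rose by 0.80 (SE 0.25, edgeR adjusted p = 0.0318). The kinetochore motor gene Cenpe fell by 0.64 (SE 0.16) and Cdc20 fell by 0.67 (SE 0.18). Every neural progenitor marker was higher in the astroglia-like class, such as Fabp7 (100 against 38.3 UMIs per 10000) and Slc1a3 (18.7 against 8.82). The astroglia marker Aldoc was higher too (9.70 against 2.74), and the dorsal marker Pax6 was lower (2.11 against 3.49). How far the 2 classes hold the same kind of cell was not tested.

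The calls in astroglia-like cells rested on few embryos and on the setting. Both rises were lost with DESeq2, with at least 800 detected genes, and without control 14 or control 16, which left the 2 falls in each case. Without mutant 11 a single call was left, and without the 5% of barcodes with most UMIs there were 12, of which 10 were falls. The share of all genes called under these settings is not given here, so these counts have no background beside them. The median log2 fold change was 0.0034 for S members and −0.25 for G2/M members, beside −0.028 for all genes tested.

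In ventral progenitor-like cells none of 27 tested members differed from dorsal radial glia-like cells in the edgeR fit over 6 embryos, and none with DESeq2. Of all genes tested, edgeR called 6.97%. At an unadjusted edgeR p under 0.05 there were 2 members, beside 427 of 2409 genes. In oligodendrocyte precursor-like cells none of 32 did over 3 embryos, and none with DESeq2, beside 2.88% of all genes called by edgeR. At an unadjusted edgeR p under 0.05 there were 3 members, beside 286 of 2429 genes. With 71 such cells in these 3 embryos, differences of the size seen in intermediate progenitor-like cells may not be detectable at this depth.

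Glutamatergic neuron-like cells and interneuron-like cells were set against dorsal radial glia-like cells after the data had been seen. This gives the level that remains in cells gated by neuron markers, which may include some misplaced or joined cells. Summed S members were a median of 3.78-fold (2.65 to 6.27) and G2/M members 14.4-fold (7.01 to 29.2) higher in dorsal radial glia-like than in glutamatergic neuron-like cells, in 7 of 7 embryos. Of 42 tested members, 40 fell in glutamatergic neuron-like cells, beside 18% of all 9818 genes tested that fell. The median log2 fold change was −1.93 for 18 S members and −3.73 for 24 G2/M members, beside 0.012 for all genes.

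All 24 tested G2/M members fell, from −1.997 for Kif20b, a motor of cytokinesis, to −4.22 for Hmmr. Mki67 had 15.2, 35.1 and 46.6 CPM in glutamatergic neuron-like cells, against 373, 521 and 917 CPM in dorsal radial glia-like cells. Top2a had 25.5, 40.0 and 62.0 CPM in glutamatergic neuron-like cells, against 420.0, 566 and 877 CPM in dorsal radial glia-like cells. Every neuron-like value of both genes was a small part of the lowest dorsal radial glia-like value, with log2 fold changes of −3.99 (SE 0.16) for Mki67 and −3.90 (SE 0.14) for Top2a. Aurkb, Ncapg, Cdk1 and Kif11, a spindle motor, were the others of the 5 largest falls, at −4.22, −4.20, −4.05 and −4.03.

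The S members were far less uniform, with log2 fold changes from −3.80 for Uhrf1 and −3.60 for Mcm3 to −0.66 for Rfc2 among those that fell. Mcm7 had 89.8, 113 and 131 CPM in glutamatergic neuron-like cells, against 142, 182 and 272 CPM in dorsal radial glia-like cells, a change of −0.83 (SE 0.14, edgeR adjusted p = 2.11e-06). Dut had 72.3, 89.1 and 94.5 CPM in glutamatergic neuron-like cells, against 94.8, 189 and 326 CPM in dorsal radial glia-like cells, a change of −1.14 (SE 0.14). The ranges of both genes did not overlap, although those of Dut came within 1 CPM of each other. Rrm1 lay between, with 63.7, 80.5 and 92.1 CPM in glutamatergic neuron-like cells, against 225, 288 and 417 CPM in dorsal radial glia-like cells and a change of −1.93 (SE 0.13).

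Within the MCM helicase, whose subunits work in equal numbers, the 6 genes fell by unequal amounts in glutamatergic neuron-like cells: −3.60 for Mcm3, −2.71 for Mcm2, −2.70 for Mcm5, −2.05 for Mcm6, −1.95 for Mcm4 and −0.83 for Mcm7. Slbp, which binds the end of histone mRNAs, and Chaf1b, of the histone chaperone CAF-1, had −0.68 and −0.38 and did not pass (edgeR adjusted p = 0.0777 and 0.381). Interneuron-like cells gave 32 falls among 33 tested members, beside 19.4% of all genes. There too Mcm7 (−0.76) and Rfc2 (−0.84) fell least among the called members, and Pola1 had −0.31 (edgeR adjusted p = 0.353). Mcm7 and Rfc2 share exonic positions with other genes on the opposite strand, so the size of their falls is uncertain in both classes.

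How far S and G2/M members met in the same cell was counted after thinning each cell to 1000 UMIs, so that depth did not differ between classes. In dorsal radial glia-like cells, 69.3% of 488 cells had at least 1 S UMI, 51.2% at least 1 G2/M UMI and 38.5% both (95% exact binomial interval 34.2 to 43.0, counting error only), beside 35.5% by the product of the single shares. A further 198 shallower cells of this class were left out, and without thinning the share with both was 48.1%. In intermediate progenitor-like cells (938 cells, 274 left out), the shares were 64.5%, 31.2% and 25.7% (22.9 to 28.6), beside a product of 20.1%, and 34.7% had both without thinning.

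Intermediate progenitor-like cells thus had a lower share with an S UMI than dorsal radial glia-like cells (64.5% against 69.3%). Glutamatergic neuron-like cells already had 45.8%. The share with a G2/M UMI was lower as well (31.2% against 51.2%). Over embryos the share with a G2/M UMI was 35.8%, 26.9%, 34.2% and 25.8% in mutants and 22%, 31.1% and 37.9% in controls in intermediate progenitor-like cells. In dorsal radial glia-like cells it was 55.6%, 54.7%, 58.1% and 52.4% in mutants and 51.4%, 48.3% and 43.3% in controls, above every intermediate progenitor-like value.

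Glutamatergic neuron-like cells had 45.8%, 13.9% and 8.37% of 7539 cells with an S UMI, a G2/M UMI and both (7.75 to 9.02 for both). Their median depth before thinning was 1897 UMIs, against 1253 in dorsal radial glia-like cells. Interneuron-like cells were close to them, at 49.6%, 13.8% and 8.30%. Cells with an S UMI were thus common in classes gated by neuron markers, so the share in progenitor-like classes is read only above that level. These gates do not exclude dividing cells, and the part of misplaced or joined cells in that level was not tested.

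**Figure D3:**
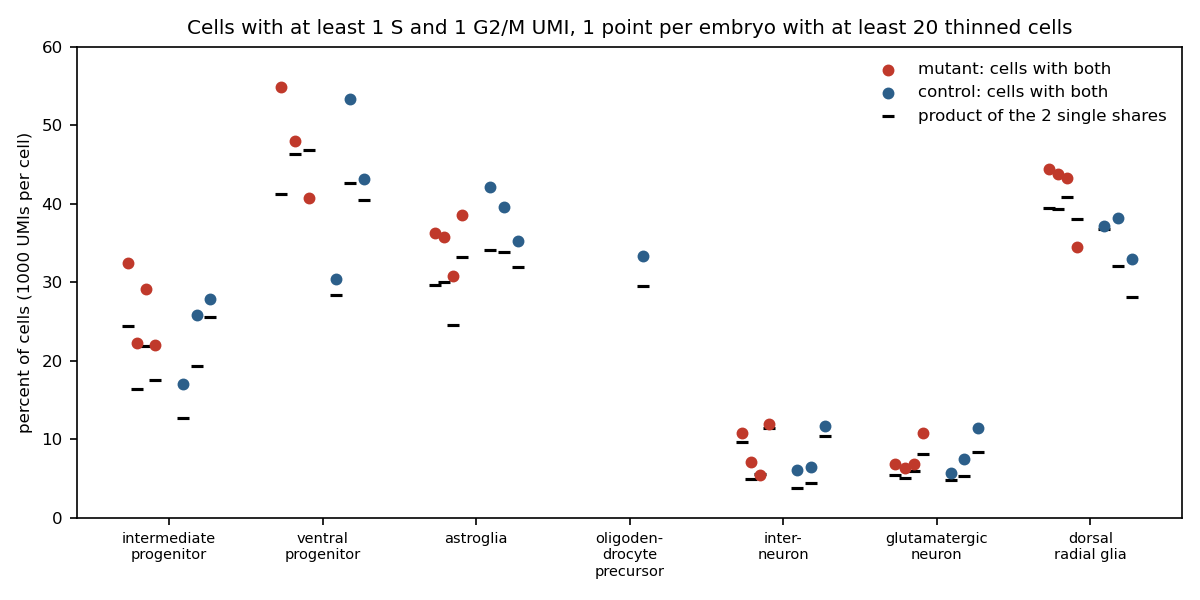
Share of cells with at least 1 S and 1 G2/M UMI after thinning to 1000 UMIs, 1 point per embryo with at least 20 such cells, mutants in red and controls in blue, with the product of the 2 single shares of the same embryo as a black dash. Progenitor-like and astroglia-like points lie between 17.0% and 54.8%, neuron-like and interneuron-like points under 12%.

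The share of cells with both lay above the product in 7 of 7 embryos in intermediate progenitor-like, astroglia-like and glutamatergic neuron-like cells, and in 6 of 7 in dorsal radial glia-like cells. The exception was mutant 17, with 34.5% and a product of 38.0%. The pooled share with both was at most 1.31 times the product among the 7 classes. The measure itself limits this value, because the share with both cannot exceed the smaller single share. In dorsal radial glia-like cells that limit was 51.2%, beside a product of 35.5%. The size of the excess thus says little about how far the phases are apart.

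Pairs of single members showed where the lists held together. Over all 16598 thinned cells, the 325 pairs of G2/M members were found together a median of 9.34 times as often as the product of their shares, from 4.99 to 16.3, and no pair was below the product. Top2a and Mki67 shared 598 cells, against 82.7 by the product. The 227 S pairs with at least 1 cell by the product had a median of 2.74, and the 568 mixed pairs had 2.51, with 25 below the product. The values pool cell classes, so they are a description of all cells together.

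S members thus met one another hardly more often than they met G2/M members. Mcm7 and Rrm1 shared 275 cells, only 1.37 times the product, whereas Mcm2 and Mcm6 shared 218 cells, 3.52 times the product. The highest S pair was Cdc45 with Uhrf1, at 9.29 times the product. Ung, a uracil-DNA glycosylase, was in 10 of the 25 mixed pairs below the product, and no thinned cell held both Ung and Hmmr, against 1.11 by the product. Rrm1 and Top2a shared 401 cells, 3.15 times the product, and Uhrf1 and Top2a 204 cells, 5.64 times the product.

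**Figure D4:**
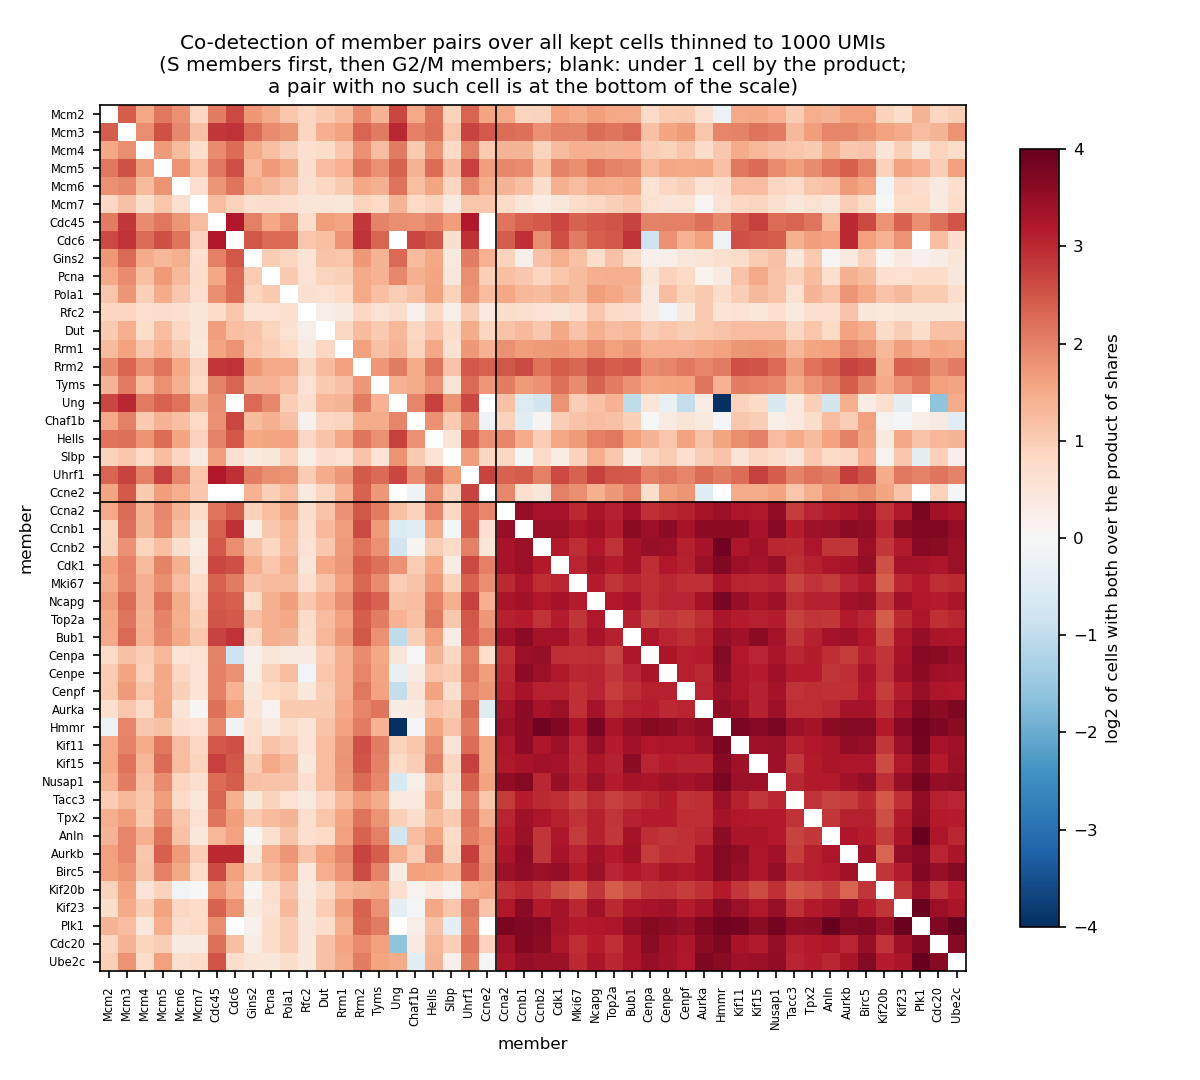
Log2 of the number of cells with both members over the number given by the product of their shares, for every pair of members over all thinned cells, S members first and then G2/M members, with the lines between the lists. The G2/M block is uniformly high (median 9.34-fold), and the S block (2.74-fold) is close to the mixed block (2.51-fold) apart from a few pairs such as Cdc45 with Uhrf1 (9.29-fold).

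Cells rich in member UMIs were split by the share that fell to G2/M, a description added after the data had been seen. Of 16598 thinned cells, 1406 (8.47%) had at least 6 member UMIs. Among them, 317 (22.5%) had at most 25% of those UMIs in G2/M members, 560 (39.8%) had at least 75%, and 529 (37.6%) lay between, with 230 cells within 5 points of a limit. The share is a continuous range, so these are no phases in themselves.

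Such cells made up 33.0% of dorsal radial glia-like cells (161 of 488), 21.2% of intermediate progenitor-like cells (199 of 938), 29.95% of astroglia-like cells (322 of 1075) and 1.91% of glutamatergic neuron-like cells (144 of 7539). The part with at least 75% G2/M UMIs was 40.2% in intermediate progenitor-like cells and 43.5% in dorsal radial glia-like cells. In astroglia-like cells it was 36.3%, and the part with at most 25% was 32.0%, against 21.7% in dorsal radial glia-like cells.

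Mutants were compared with controls first over all kept cells, which asks whether loss of Ash1l in the Emx1 lineage changed the expression of the cycle genes. Summed S members were 12.2, 10.9, 13.3 and 10.1 UMIs per 10000 in mutants, against 10.2, 10.48 and 10.6 in controls. G2/M members were 11.9, 9.04, 10.4 and 8.42 in mutants, against 8.24, 11.3 and 8.26 in controls. The groups overlapped in both lists, and mutant 10 and control 15 were the high embryos for G2/M. In sums over all cells, fewer dividing cells and less RNA per cell cannot be told apart.

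None of the 48 members passed the edgeR test over all kept cells, and none with DESeq2. Of all 12893 genes tested, edgeR called 0.0233% (3 genes). At an unadjusted edgeR p under 0.05 there were 4 of the 48 members, beside 1350 of the 12893 genes. Of the 48 fold changes, 41 were above 0, beside 6510 of all 12893 genes tested. The median was 0.15 for S members and 0.08 for G2/M members, beside 0.0029 for all genes tested. In 2 members, Mcm6 and Chaf1b, every mutant lay above every control, beside 4.52% of all genes tested, and in none did every mutant lie below, beside 5.27%.

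The smallest p belonged to Chaf1b, with 23.8, 22.5, 27.4 and 25.2 CPM in mutants, against 16.0, 17.7 and 17.6 CPM in controls. Mcm6 had 109, 104, 114 and 92.7 CPM in mutants, against 87.8, 81.8 and 87.4 CPM in controls. Uhrf1 had 55.5, 38.6, 50.1 and 35.0 CPM in mutants, against 40.6, 30.1 and 28.5 CPM in controls. The first 2 of these genes had no overlap between groups and Uhrf1 did, with log2 fold changes of 0.53 (SE 0.14) for Chaf1b, 0.30 (SE 0.11) for Mcm6 and 0.44 (SE 0.17) for Uhrf1. The edgeR adjusted p was 0.322, 0.404 and 0.419, and over the alternatives it ranged from 0.117 to 0.820 in these 3 genes.

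The members with most UMIs gave the same picture of overlapping groups. Among S members, Mcm7 had 133, 124, 145 and 119 CPM in mutants, against 131, 119 and 135 CPM in controls. Rrm1 had 157, 129.5, 145 and 123 CPM in mutants, against 119, 128 and 114 CPM in controls. Mutant 17 lay below control 15 in Rrm1, and in Mcm7 control 16 lay above 3 of the 4 mutants. Dut had 98.6, 84.6, 103 and 112 CPM in mutants, against 107, 103 and 117 CPM in controls, with mutant 11 lowest of all embryos. Pcna had 122, 104, 108 and 90.9 CPM in mutants, against 108, 96.3 and 101 CPM in controls, with mutant 17 lowest.

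Among G2/M members, Top2a had 183, 137, 141 and 135 CPM in mutants, against 131, 175 and 134 CPM in controls. Mki67 had 173, 132, 136 and 114 CPM in mutants, against 119.6, 158 and 122 CPM in controls. Mutant 10 and control 15 were the 2 highest embryos in both genes. Cenpf had 97.1, 70.4, 75.04 and 62.9 CPM in mutants, against 57.7, 94.4 and 66.8 CPM in controls. Tpx2 had 68.6, 45.4, 56.8 and 56.2 CPM in mutants, against 41.8, 68.8 and 49.7 CPM in controls. The same 2 embryos stood highest again, and none of these 8 members had an edgeR adjusted p under 0.54.

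Glutamatergic neuron-like cells, the class with the lowest level of member UMIs per 10000 among those described, made up 37.3%, 33.7%, 32.6% and 39.2% of kept cells in mutants, against 46.8%, 38.9% and 44.2% in controls (35.7% ± 3.09, n = 4, and 43.3% ± 4.02, n = 3). The groups overlapped between mutant 17 and control 15, and an exact two-sided permutation test gave p = 0.114, where 0.0571 is the smallest the design allows. The summed UMIs of the 8 markers of that class did not overlap, at 12.4 to 13.8 per 10000 in mutants, against 14.0 to 16.3 in controls. Their part in the differences over all kept cells was not tested.

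**Figure D5:**
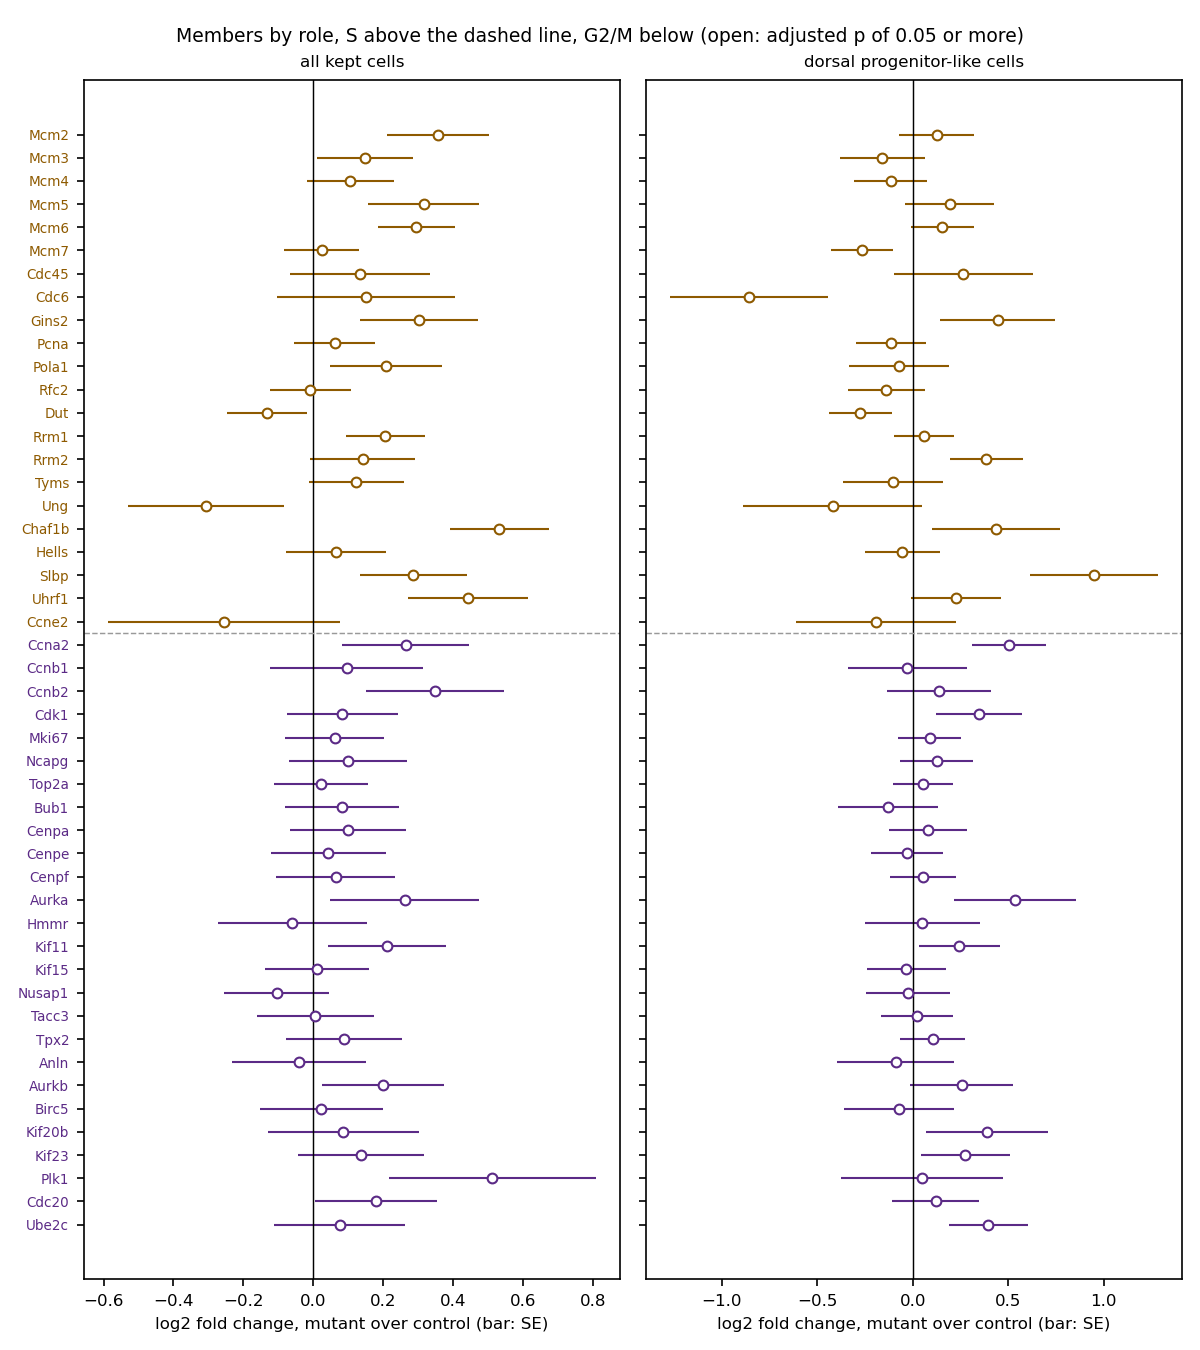
Log2 fold change of each member in mutants over controls, with SE bars, over all kept cells (left) and in dorsal progenitor-like cells (right), S members in brown and G2/M members in purple. All points are open, since no member had an edgeR adjusted p under 0.05, and 41 of 48 lie right of 0 over all kept cells, against 29 of 48 in dorsal progenitor-like cells (of all genes tested, 6510 of 12893 and 4313 of 8459).

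Within dorsal progenitor-like cells (dorsal radial glia-like and intermediate progenitor-like cells joined, 1898 cells), the lineage of the Emx1 driver, summed S members were 20.8 ± 2.87 UMIs per 10000 in mutants (n = 4) and 20.9 ± 1.69 in controls (n = 3). G2/M members were 27.0 ± 3.29 in mutants and 25.2 ± 3.66 in controls. Neither difference exceeded the spread between embryos.

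None of 48 members passed the edgeR test in dorsal progenitor-like cells, and none with DESeq2, beside 0.0118% of all 8459 genes called by edgeR. At an unadjusted edgeR p under 0.05 there were 3 members, beside 479 of the 8459 genes. Slbp had 51.6, 41.0, 54.9 and 22.4 CPM in mutants, against 28.4, 14.7 and 24.1 CPM in controls. Ccna2 had 117, 128, 114 and 120.2 CPM in mutants, against 109, 80.3 and 68.2 CPM in controls. Ccna2 had no overlap between groups, like Rrm2 and Ube2c, 3 of 48 members beside 3.05% of all genes tested, none had every mutant below, beside 3.2%, and Slbp overlapped at mutant 17. Cdc6, which loads the helicase on origins, had 22.4, 13.7, 17.0 and 6.11 CPM in mutants, against 13.1, 36.0 and 30.8 CPM in controls, with mutants 10, 11 and 12 above control 14. The log2 fold changes were 0.95 (SE 0.33) for Slbp, 0.50 (SE 0.19) for Ccna2 and −0.86 (SE 0.41) for Cdc6, with edgeR adjusted p = 0.848, 0.848 and 0.870.

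In ventral progenitor-like cells, outside the driver's domain, 24 members were tested over mutants 10, 12 and 17 and the 3 controls; mutant 11 had only 14 such cells and was left out. None passed in the edgeR fit, and none with DESeq2, beside 0% of 2012 genes called by edgeR. At an unadjusted edgeR p under 0.05 there was 1 member, beside 94 of the 2012 genes. Mcm6 had 421, 467 and 310.3 CPM in mutants, against 85.7, 219.8 and 141 CPM in controls, a log2 fold change of 1.44 (SE 0.36, edgeR adjusted p = 0.782). Rrm2 had 354, 317 and 217 CPM in mutants, against 189, 157 and 211 CPM in controls. Both had no overlap between groups, 2 of 24 members beside 5.57% of all genes tested, and none had every mutant below, beside 5.07%. Pcna had 438, 391.9 and 186 CPM in mutants, against 309, 173 and 211 CPM in controls, with overlap.

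The difference of the genotype effect between dorsal and ventral progenitor-like cells was tested as an interaction over 45 members. None passed in the edgeR fit, and none with DESeq2, beside 0% of 7095 genes called by edgeR. At an unadjusted edgeR p under 0.05 there were 3 members, beside 285 of the 7095 genes. The 3 members were Mcm6 (−1.22, SE 0.39), Anln (−2.05, SE 0.76) and Chaf1b. Chaf1b had 86.6, 116 and 0 CPM in ventral progenitor-like cells of mutants 10, 12 and 17, against 26.2, 0 and 0 CPM in controls. With 3 of 6 sums at 0 its fitted interaction gives no usable size, and it ran from −7.50 without control 14 to −1.92 without control 15. The share of thinned cells with at least 6 member UMIs was 11.6%, 8.54%, 11.2% and 5.90% in mutants, against 6.97%, 9.57% and 6.69% in controls. Mutant 17 was lowest of all 7 embryos and mutant 10 highest, so the groups overlapped.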

How the data were processed

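The authors deposited 1 table per embryo of whole-number UMI counts per gene symbol and bead barcode, without normalisation. Reads were aligned with STAR to mm10, per the submitters' processing notes; for the annotation, strand and UMI collapsing, the sources used here give nothing. Barcodes with at least 500 genes and at most 10% mitochondrial UMIs were kept. Classes needed at least 2 of their own markers; dorsal radial glia-like and ventral progenitor-like cells needed 1 and at least 2 neural progenitor markers. Doublets were not removed, so 1 alternative left out the 5% of barcodes with most UMIs. Counts were summed per embryo and class (at least 20 cells) and tested with edgeR 4.0.16 (quasi-likelihood, TMM, filterByExpr), with DESeq2 1.42.0 as an alternative, in R 4.3.3; p-values were adjusted over all genes tested. Members that passed the count filter are those called tested. The test was checked on simulated data for the genotype comparisons over all kept cells and in dorsal progenitor-like cells. The intermediate progenitor-like contrast and the interaction were simulated too, and the other comparisons were not. A minimum recovery of true changes was required only over all kept cells and in the intermediate progenitor-like contrast. Thinning used seed 1. Python 3.11.15 with numpy 2.4.6, scipy 1.17.1, pandas 2.3.3 and matplotlib 3.10.9 did the rest.

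The members, the further gene lists, the markers and the contrasts were chosen with earlier results of these data known. Values per embryo were given for the 4 S and the 4 G2/M members with most UMIs and for the 3 with the smallest p between genotypes, and in class contrasts for the 5 largest changes in each direction; the other named members fill out a role and were named after their values were seen. The contrasts with neuron-like and interneuron-like cells and the split by G2/M share were added after seeing the data. Exons of 11 members (Ccna2, Ccne2, Cdc20, Cdc45, Gins2, Mcm7, Ncapg, Nusap1, Rfc2, Tacc3 and Ube2c) overlap those of another protein-coding gene on the opposite strand in the GENCODE annotation of mm10, so their counts are uncertain.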

Additional observations from a re-analysis of the deposited data

Results flagged for a closer look

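Among 40 groups of 4 mutants looked at, 2 had 1 embryo far from the other 3, and chance alone flags about 1 group in 20. Top2a over all kept cells was 183 CPM in mutant 10, against 135 to 141 CPM in the other mutants. Control 15 was almost as high, at 175 CPM, and Mki67 and Cenpf were likewise highest in mutant 10 and next highest in control 15.

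In interneuron-like cells, the ratio of S to G2/M UMIs was 0.629 in mutant 10, against 1.88 to 2.11 in the other mutants. G2/M members made up 12.4 UMIs per 10000 in that embryo's interneuron-like cells, against 3.08 to 5.13 in the other mutants and 2.29 to 5.83 in controls. S members were 7.81 per 10000 there, within the range of 6.51 to 9.64 in the other mutants. The part that misplaced or joined cells play in this value was not tested.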

How the results depend on the processing

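No paired analysis was possible because mutants and controls share no replicate number; the contrasts between classes held the embryo as a block throughout. Counts of called members between genotypes were 0 in every setting run, including each embryo left out, while of all genes over all kept cells edgeR called 3, DESeq2 21, edgeR without the count filter 165, and edgeR 26 without mutant 17, 9 without control 16 and 5 without control 14. In intermediate progenitor-like cells 18 to 27 members were called under the other settings and 20 to 28 with 1 embryo left out; in glutamatergic neuron-like cells 37 to 46 and 40 to 43, and in interneuron-like cells 28 to 45 and 32 to 33. Astroglia-like cells had 2 calls with DESeq2, 2 at 800 genes, 12 without the 5% of barcodes with most UMIs and 1 to 4 with 1 embryo left out (1 without mutant 11, 2 without control 14 or control 16). Ventral progenitor-like cells had 1 at 800 genes and 0 to 1 with 1 embryo left out (1 without mutant 12), and oligodendrocyte precursor-like cells 0 to 2 (2 without mutant 11), with an S to G2/M ratio of 1.21 at 800 genes. For these contrasts between classes, the shares of all genes called under the other settings are not given here. The share of cells with both lists depended on depth by construction: at 500 UMIs it was 27.1% in dorsal radial glia-like, 16.0% in intermediate progenitor-like, 26.1% in ventral progenitor-like and 22.1% in astroglia-like cells. At 2000 UMIs it was 60.2%, 34.0% and 50.6% in the dorsal radial glia-like, intermediate progenitor-like and astroglia-like classes, and with at least 2 UMIs of each list 23.6%, 15.2%, 24.0% (ventral progenitor-like) and 19.7% (astroglia-like). Intermediate progenitor-like cells stayed below dorsal radial glia-like cells in all of these. All 150 values of single members followed in the genotype tests and the interaction kept their direction, and none passed the threshold. Single members were not followed in this way in the contrasts between classes. There some calls did change, as with the 2 rises in astroglia-like cells. A rule of 1 more marker per class was not run for ventral progenitor-like cells (in either comparison), the interaction and oligodendrocyte precursor-like cells, nor was the test of oligodendrocyte precursor-like cells at 800 genes, for lack of cells. Depth limits classes of few cells and members of few UMIs most.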

Other observations

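Among the 7 classes, oligodendrocyte precursor-like cells had the highest pooled level of 15 of the 22 S members and 11 of the 26 G2/M members. Only 3 embryos had at least 20 such cells, and there the direction was mostly the other one. Both summed lists were lower than in dorsal radial glia-like cells in 2 of the 3 embryos. Of 32 tested members, 26 had a negative log2 fold change (median −0.35 over all 32, beside −0.016 for all genes tested). In the other 4 embryos, with 17 to 19 cells each, G2/M members ranged from 9.63 to 66.4 UMIs per 10000. Cells in no class had 11.6 ± 1.41 S and 10.7 ± 2.62 G2/M UMIs per 10000 (SD, n = 7), near the means over all kept cells of 11.1 ± 1.19 and 9.65 ± 1.53.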
